A study of Homo sapiens with 3 samples.

Results

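The genes described here are 10 that mark intestinal and other simple (single-layered) epithelium: CDH17, VIL1, LGALS4, MUC13, KRT20, CEACAM5, CEACAM6, KRT8, KRT18 and KRT19. They were chosen by symbol, with no threshold on their values, and all 10 stood in the deposited table of 31907 genes. All 10 also passed the filter used for testing, a mean of at least 1 TPM, a unit that gives each gene's share of the transcripts in a library. The filter left 14429 genes. The cells were NCI-N87, an established human gastric cancer line, transfected with Lipofectamine 2000 in all 3 libraries, which were made from poly-A selected RNA. The siScramble library came from cells labelled wild type that received a scrambled siRNA. The siRNA1 and siRNA2 libraries came from cells labelled knockdown, each given a different siRNA against FOXP4, a forkhead transcription factor. There was 1 library per siRNA, all from a single cell line, and the labels give no time after transfection and do not say whether the libraries came from separate cultures. P-values therefore measure only the spread between these libraries, which may be technical.

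A simple epithelium is held together by cadherins and desmosomes, carries mucins and other glycoproteins on its apical face, and is braced inside by keratin filaments. Each keratin filament pairs a type II keratin, here KRT8, with a type I keratin such as KRT18, KRT19 or KRT20. Normal stomach makes the simple keratins, while CDH17, villin, galectin-4 and KRT20 are better known from the intestine. CDH17 and villin also appear in the stomach with intestinal metaplasia and in many gastric cancers. CEACAM5, the carcinoembryonic antigen, and CEACAM6 are attached to the outer membrane by a lipid anchor and are abundant in many carcinomas of the gut.

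The libraries were of like depth, and FOXP4 was lower in both knockdown libraries. A TPM value multiplied by the exon length of its gene is a whole number of reads times a constant of the library, so read counts could be worked out from the table. Between 91.1% and 91.2% of the values fell within 0.1 of a whole number of reads. The genes with a known length summed to 18108702 reads with siScramble, 18287539 with siRNA1 and 18886131 with siRNA2. FOXP4 measured 93.9 TPM with siScramble, 51.6 TPM with siRNA1 and 36.7 TPM with siRNA2. Mitochondrially encoded genes took 6.37%, 10.4% and 1.92% of TPM in the same order, and the median log2 fold of all genes tested was 0.03 with siRNA1 and -0.24 with siRNA2. A member lower by about the latter amount with siRNA2 thus stood near the typical gene. For the line's own identity, the gastric protease gene CTSE measured 2081, 1982 and 2135 TPM, and the epithelial surface gene EPCAM 1136, 1150 and 813 TPM. CTSE was the highest of 11 gastric markers in the table, of which 6 passed the filter on low values. Some others were near 0, with MUC5AC at most 0.049 TPM and MUC6 and GKN1 listed at 0 in each library. Of 10 immune markers 5 stood in the table and 1 passed the filter on low values, and the pan-leukocyte gene PTPRC measured 0.025, 0.026 and 0.052 TPM. Summed levels of the immune list lay between 3.66 and 4.75 TPM, with 2 of the 5 genes at 0 in each library. Those of 9 fibroblast and endothelial markers lay between 7.10 and 22.8 TPM, most of it COL1A1, with 5 to 7 of them at 0.

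Simple keratins dominated the set. KRT8, KRT18 and KRT19 made up 81.2% of the summed TPM of the 10 genes with siScramble, 71.4% with siRNA1 and 84.0% with siRNA2. The 10 genes together took 0.405%, 0.281% and 0.466% of all TPM. By mean over the 3 libraries the order was KRT8 at 1563 TPM, KRT19 at 1247, CDH17 at 337, KRT18 at 254, LGALS4 at 155, VIL1 at 128, MUC13 at 76.8, CEACAM6 at 42.6, CEACAM5 at 24.9 and KRT20 at 4.13 TPM. The ranges over the libraries overlapped for 3 neighbouring pairs in this order, KRT8 with KRT19, CDH17 with KRT18, and CEACAM6 with CEACAM5. The other 6 neighbouring pairs did not overlap.

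**Figure D1:**
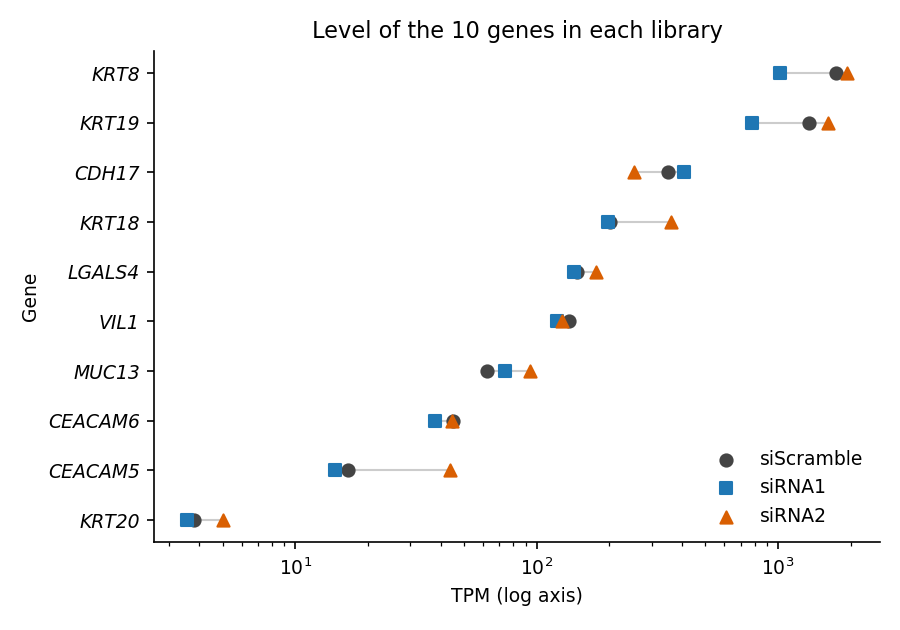
TPM of each gene (vertical axis, ordered by mean level) in the siScramble (circle), siRNA1 (square) and siRNA2 (triangle) libraries, on a logarithmic horizontal axis, 1 library per point. Grey lines join the lowest and highest library; KRT8 spans 1025 to 1929.9 TPM at the top and KRT20 3.57 to 5.03 TPM at the bottom.

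These levels depend on the length that the authors divided by. The read counts of 8 members came out whole in all 3 libraries, within 0.02 of a read, with the summed exon length in GENCODE 29. For CEACAM5 and KRT8 they did not, and the smallest length between 500 and 12000 bases that gave whole reads was 3426 bases for CEACAM5 and 5011 for KRT8. Multiples of these lengths would fit too, and with so many lengths tried a length can also fit by accident. The reads given for CEACAM5 and the intervals of both genes therefore rest on the smallest length that fits, which may not be the authors' length. The same holds for the reads per kilobase of KRT8 and for its ratio by principal transcript length to the type I keratins below. The principal transcripts of KRT8 are at most 2126 bases long, shorter than either length. With reads divided by the longest principal transcript instead, KRT8 stayed first and KRT19 second, and KRT18 came before CDH17, at a mean of 2423 against 1646 reads per kilobase.

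No member passed the test for knockdown against control. Limma over the 14429 genes tested, with both knockdown libraries against the lone control and Benjamini-Hochberg adjustment over all of them, called 0 genes at an adjusted p under 0.05, or 0% of genes tested. The adjusted p was 0.9999 for every member. With 1 control library the test has little power, and on simulated libraries that varied as much as these siRNA libraries it called none of the changes put in, so a missing call does not show that a gene did not differ. Without adjustment, 428 genes lay under 0.05 by the same test, 2.97% of those tested, and 0 of them were members. By size alone, 0 of 10 members were at least 2-fold higher with both siRNAs, against 2.52% of all genes tested, and 0 of 10 at least 2-fold lower with both, against 2.38%. With siRNA1 alone, 0 of 10 were at least 2-fold higher, against 5.27% of all genes, and 0 of 10 at least 2-fold lower, against 6.0%. The descriptions below therefore give values of single libraries. Ratios carry a 95% interval from the read counts (exact Clopper-Pearson), which covers counting error alone and says nothing about variation between cultures. In these bulk libraries, fewer cells of a kind and less RNA per cell cannot be told apart.

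The 5 intestinal surface and brush border genes stayed near the control, with CDH17 and MUC13 farthest from it. CDH17 encodes liver-intestine cadherin, a calcium-dependent adhesion protein of the lateral membrane that, unlike classical cadherins, lacks a catenin-binding tail. CDH17 (ENSG00000079112.9, chromosome 8) measured 349.6 TPM with siScramble, 409 TPM with siRNA1 and 252 TPM with siRNA2, on 6419, 7259 and 4563 reads. The knockdown libraries lay on opposite sides of the control. The siRNA2 level was 0.618 times the siRNA1 level (95% counting interval 0.595 to 0.641), and the mean log2 fold of the siRNAs was -0.12 ± 0.49 (SD, n = 2). CDH17 was the member with the lowest siRNA2 fold, at -0.47 on the log2 scale. It was also the only one below the all-gene median of -0.24.

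MUC13, a transmembrane mucin with EGF-like domains on the apical face of gut epithelium, was the only member higher with both siRNAs as deposited. LGALS4 and KRT18 joined it when mitochondrially encoded genes or the GC trend were removed, and KRT18 after quantile normalization. The gene (ENSG00000173702.7, GRCh38 chromosome 3, 124905442 to 124953819, minus strand) measured 62.5, 74.2 and 93.7 TPM in the order siScramble, siRNA1 and siRNA2. Both knockdown libraries were above the control, by ratios of 1.19 (1.09 to 1.29) and 1.5 (1.38 to 1.62). On the log2 scale it was higher by 0.25 and 0.58, or 0.41 ± 0.23 on average (SD, n = 2). Of all genes tested, 24.5% were likewise higher by any amount with both siRNAs, so 1 member of 10 is not above the background. With the trend on GC content removed, described below, the siRNA1 fold of MUC13 was 0.03.

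VIL1 and LGALS4 stood near the control. VIL1 encodes villin, which bundles the actin cores of microvilli in the brush border. VIL1 (ENSG00000127831.10, chromosome 2, 218419092 to 218453295, plus strand) measured 136, 122 and 128 TPM, ratios to the control of 0.894 and 0.94. In GENCODE 29, 3045 of its exon bases, 44.0% of them, also lie in exons of USP37 on the opposite strand. Whether the counting used strand was not given in the sources used here, so reads from USP37 (6.79, 8.93 and 5.44 TPM) cannot be told apart there. LGALS4 encodes galectin-4, a galactoside-binding lectin of apical lipid rafts and secretion. LGALS4 (ENSG00000171747.8, chromosome 19, 38801671 to 38813364, minus strand) measured 147, 144 and 176 TPM. The siRNA1 value lay within counting error of the control (ratio 0.979, interval 0.916 to 1.05), and the siRNA2 value was 1.20 times the control (1.13 to 1.28).

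KRT20, a type I keratin found in mature enterocytes and goblet cells among other cells, was close to the lower end of what was tested. KRT20 (ENSG00000171431.3, chromosome 17, 40875941 to 40885227, minus strand) measured 3.80, 3.57 and 5.03 TPM on 33, 30 and 43 reads. No difference was detectable at this depth. The ratio to the control was 0.94 with siRNA1 (0.553 to 1.59) and 1.32 with siRNA2 (0.822 to 2.15).

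CEACAM5 stood apart from its neighbour CEACAM6 in the siRNA2 library. Both encode lipid-anchored adhesion molecules of the immunoglobulin superfamily, and their genes lie beside each other on chromosome 19, CEACAM5 at 41708585 to 41729798 (ENSG00000105388.15) and CEACAM6 at 41750977 to 41772208 (ENSG00000086548.8), both on the plus strand. Their upstream sequences are shown because the genes are neighbouring relatives whose levels differed. Each run is the 250 bases before the RefSeq start (GRCh38.p14, plus strand, chr19:41708376-41708625 for CEACAM5 and chr19:41755280-41755529 for CEACAM6), and capitals mark bases that differ or have no partner when the pair is aligned end to end. The GENCODE 29 models of both genes begin upstream of these RefSeq starts. That of CEACAM5 begins at 41708585, within its run, so the last part of the run lies inside the gene. That of CEACAM6 begins at 41750977, before its run, so all 250 bases lie inside the gene model.
CEACAM5: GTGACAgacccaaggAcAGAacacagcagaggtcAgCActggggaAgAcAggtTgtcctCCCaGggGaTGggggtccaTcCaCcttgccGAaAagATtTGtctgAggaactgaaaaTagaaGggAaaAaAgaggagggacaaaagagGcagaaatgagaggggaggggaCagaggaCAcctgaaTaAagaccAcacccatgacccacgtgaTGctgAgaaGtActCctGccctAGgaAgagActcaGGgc
CEACAM6: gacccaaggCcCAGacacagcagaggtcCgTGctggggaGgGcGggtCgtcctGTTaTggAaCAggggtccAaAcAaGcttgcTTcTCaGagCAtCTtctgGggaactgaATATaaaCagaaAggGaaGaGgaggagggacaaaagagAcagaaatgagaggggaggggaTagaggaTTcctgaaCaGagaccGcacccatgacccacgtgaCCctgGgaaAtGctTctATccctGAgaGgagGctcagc
Of 258 aligned columns 190 were identical, or 73.6%, 52 held different bases and 16 held a gap.

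Each run holds 1 E-box, CACGTG, inside a lower-case stretch, with its first base 46 bases before the start in CEACAM5 and 45 before it in CEACAM6. Among 35116 RefSeq promoters cut to the same 250 bases, 6.34% hold CACGTG, which reads the same on both strands. The table held promoters for 6 of the 10 members, and the motifs, both strands counted, were chosen with the values known. TGANTCA, the AP-1 site, stood in 1 of the 6, MUC13, at 178 bases before its start, against 6.57% of all promoters. TTTATG, the core of the CDX site, stood in 1 of the 6, KRT20, at 29 bases before its start, against 9.64%. TATAAA, the letters of the TATA box, which shares letters with the reverse of the CDX core, stood in CEACAM6 alone of the 6. It began 139 bases before the start, and 10.7% of all promoters hold it. These matches describe letters and show no binding.

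CEACAM5 measured 16.6 TPM with siScramble, 14.5 TPM with siRNA1 and 43.6 TPM with siRNA2, on 267, 227 and 692 reads. The siRNA1 and control libraries lay within counting error of each other, with a ratio of 0.879 (0.733 to 1.05), and the siRNA2 library lay far above both. It was 2.63 times the control (2.28 to 3.04) and 3.00 times the siRNA1 level (2.58 to 3.50). CEACAM5 was the 1 member of 10 at least 2-fold higher with siRNA2, as were 6.88% of all genes tested, and 0 of 10 were at least 2-fold lower with it, against 13.2%. The log2 folds were -0.18 and 1.34, so their mean of 0.58 ± 1.07 (SD, n = 2) was smaller than the spread between the siRNAs.

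CEACAM6 measured 45.2, 38.1 and 44.6 TPM on 649, 529 and 631 reads. The siRNA2 library matched the control within counting error, at a ratio of 0.988 (0.884 to 1.10), and the siRNA1 library was at 0.842 times the control (0.75 to 0.946). CEACAM5 thus stood at 0.366 of the CEACAM6 level in the control, at 0.382 of it with siRNA1 and at 0.977 of it with siRNA2. The relatives share sequence, and how the authors assigned reads that fit both is not stated. In GENCODE 29 a gene model on the same strand also shares 544 exon bases with CEACAM5 and 172 with CEACAM6.

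The 3 listed CEACAM relatives that were tested were higher with siRNA2, unlike CEACAM6 and the pseudogene CEACAMP9. The siRNA2 log2 folds of those were -0.02 and -3.87, and CEACAMP9, which is not in the list, is described at the end. Of 10 listed relatives 7 stood in the table and 3 passed the filter on low values, and 0 passed limma. All 3 were higher with both siRNAs by any amount, as were 24.5% of all genes tested. Their median log2 folds were 0.21 and 1.37, against 0.03 and -0.24 over all genes tested. With the GC trend removed they were 0.43 and 1.67, against 0.00 and -0.01. With siRNA1 only CEACAM18 lay beyond counting error, at 2.57 times the control (1.67 to 4.03). CEACAM1, at a ratio of 1.05 (0.999 to 1.11), and CEACAM19, at 1.29, lay within it. With the GC trend removed, the siRNA1 log2 fold of CEACAM1 was -0.03. CEACAM1, the form with a transmembrane segment and a signalling tail, measured 113, 119 and 135 TPM. CEACAM18 was 4.46, 11.5 and 28.1 TPM on 31, 77 and 192 reads. It was the 1 relative at least 2-fold higher with both siRNAs, as were 2.52% of all genes tested. CEACAM19 was 1.14, 1.48 and 4.52 TPM. CEACAM16 stayed below 0.25 TPM in each library.

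**Figure D2:**
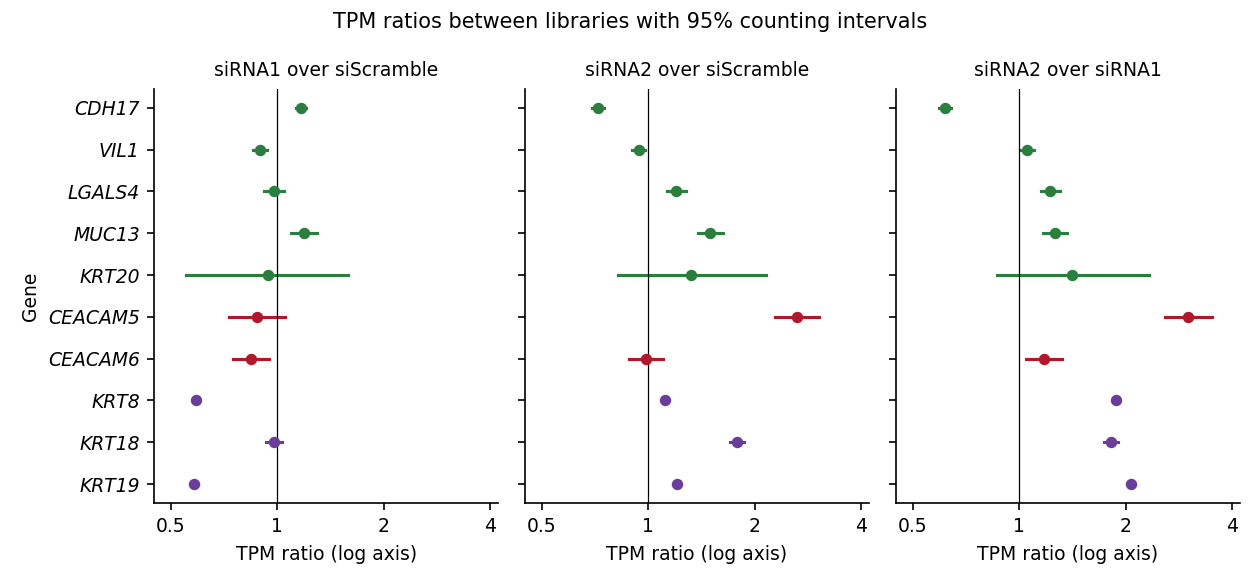
Ratio of TPM between libraries (horizontal, logarithmic axis) for each gene (vertical axis) in 3 panels, with siRNA1 over siScramble, siRNA2 over siScramble and siRNA2 over siRNA1. Points are ratios and lines are 95% intervals from read counts alone, too narrow to see for KRT8 and KRT19. CEACAM5 lies at 2.63 and KRT18 at 1.78 in the middle panel, while KRT8 and KRT19 lie at 0.591 and 0.581 in the left panel.

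The 3 abundant simple keratins gave unlike patterns against the control. KRT8, the type II partner, and KRT19, the smallest type I keratin, were low with siRNA1, whereas KRT18, the type I keratin classically paired with KRT8, was high with siRNA2. KRT8 (ENSG00000170421.12, chromosome 12, 52897187 to 52949954, minus strand) measured 1733, 1025 and 1929.9 TPM in the usual order. The siRNA1 library stood below the others, at 0.591 of the control (0.582 to 0.601), and siRNA2 at 1.11 of it (1.10 to 1.13). KRT19 (ENSG00000171345.13, chromosome 17, 41523617 to 41528308, minus strand) measured 1343, 781 and 1616 TPM. Its pattern was that of KRT8, with ratios of 0.581 (0.566 to 0.597) and 1.20 (1.18 to 1.23). KRT18 (ENSG00000111057.10, chromosome 12, 52948871 to 52952901, plus strand) measured 202, 199 and 361 TPM. The siRNA1 library matched the control within counting error (ratio 0.981, interval 0.933 to 1.03), and siRNA2 stood at 1.78 times it (1.71 to 1.87).

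Mean log2 folds were -0.30 ± 0.65 for KRT8, -0.26 ± 0.74 for KRT19 and 0.40 ± 0.61 for KRT18 (SD, n = 2), each smaller than the spread between the siRNAs. All 3 were higher with siRNA2 than with siRNA1, by ratios of 1.88 for KRT8, 1.82 for KRT18 and 2.07 for KRT19. At a limit of 1.5-fold, chosen after the values were seen, 4 of 10 members were higher with siRNA2 than with siRNA1, these keratins and CEACAM5, against 12.9% of all genes tested. CDH17 was the 1 member at least 1.5-fold lower, against 30.5%. At 2-fold, 2 of 10 were higher with siRNA2 than with siRNA1, CEACAM5 and KRT19, against 5.99%, and 0 of 10 lower, against 12.8%. Against the control at the 1.5-fold limit, 2 of 10 were lower with siRNA1, KRT8 and KRT19 (17.0% of all genes), and 2 of 10 higher with siRNA2, KRT18 and CEACAM5 (12.8%). None of the 10 was 1.5-fold higher with siRNA1 (16.5%) or 1.5-fold lower with siRNA2 (29.7%).

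The balance of partner keratins shifted less than the single genes. KRT8 stood at 1.12, 1.04 and 0.974 times the sum of KRT18, KRT19 and KRT20 in the siScramble, siRNA1 and siRNA2 libraries. With reads divided by principal transcript length the ratios were 1.53, 1.40 and 1.31, so the level of the ratio depends on the length used, while its order over the libraries was the same. Within that sum the make-up differed. KRT8 was 8.57 times KRT18 in the control and 5.16 and 5.35 times with siRNA1 and siRNA2, and KRT19 was 6.64, 3.93 and 4.48 times KRT18. KRT7, the other type II keratin of simple epithelium, had 1, 2 and 12 reads.

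Copies of the keratin genes elsewhere in the genome held few of the assigned reads. Copies named for KRT8 filled 39 rows of the table and summed to 59.2, 51.4 and 71.9 TPM, at most 5.02% of KRT8 itself. For KRT18 there were 50 rows, summing to 10.4, 11.1 and 21.6 TPM, at most 5.97% of KRT18. Adding the copies gave log2 folds of -0.74 and 0.16 for KRT8 and -0.02 and 0.84 for KRT18, against -0.76 and 0.15, and -0.03 and 0.83, without them. KRT8 and KRT18 also overlap at their 5′ ends on opposite strands, with 525 exon bases in common in GENCODE 29, 16.3% of those of KRT18, where reads cannot be told apart without strand.

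**Figure D3:**
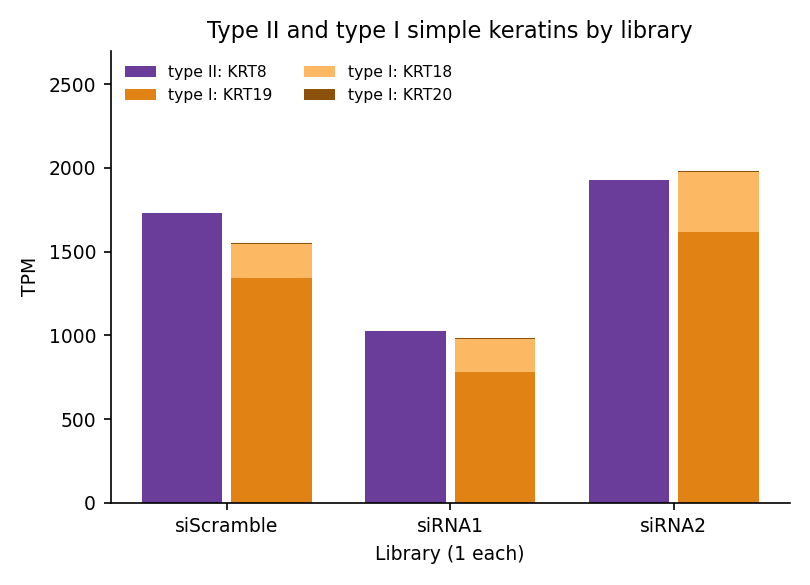
TPM (vertical axis) of the type II keratin KRT8 (left bar) and of the type I keratins KRT19, KRT18 and KRT20 stacked (right bar) in each of the 3 libraries, 1 library per pair of bars. The bars of a pair are near each other in height in every library, at 1025 against 983 TPM with siRNA1 and 1929.9 against 1982 TPM with siRNA2.

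As a set, the 10 genes lay slightly below the typical gene with siRNA1 and above it with siRNA2. Their median log2 fold was -0.12 with siRNA1, against 0.03 over all genes tested, and 0.26 with siRNA2, against -0.24. With siRNA1, 2 of 10 members were higher than the control by any amount, CDH17 and MUC13, against 51.8% of all genes tested. With siRNA2, 7 of 10 were higher, against 34.6%. Both knockdown libraries share the same control, so the folds are not independent of each other. VIL1 and CEACAM6 were lower with both, 2 of 10 members, against 38.1% of all genes. Those 2 siRNA2 folds, -0.09 and -0.02, were 0.19 and 0.26 when the libraries were scaled by median-of-ratios, which set the all-gene median with siRNA2 at 0.01.

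**Figure D4:**
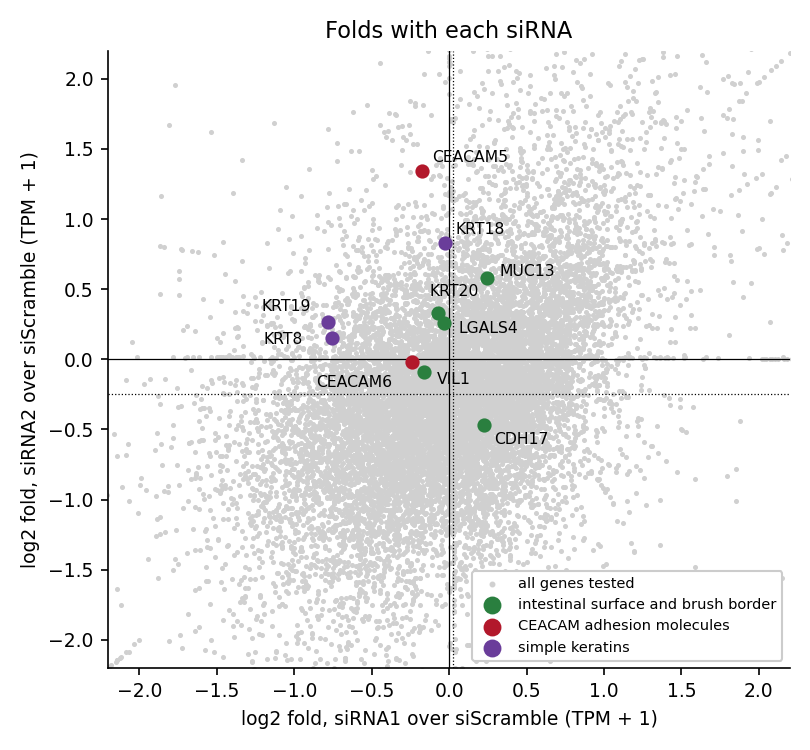
Log2 fold of TPM + 1 with siRNA1 (horizontal axis) and siRNA2 (vertical axis) over siScramble, for all genes tested (grey) and for the 10 genes coloured by role; dotted lines mark the medians of all genes, 0.03 and -0.24. Axes end at 2.2 in each direction, which leaves 496 genes outside; 9 of the 10 genes lie above the dotted line for siRNA2 and CDH17 lies below it.

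The siRNA1 folds ran with GC content. Across 12326 genes tested with a known transcript, the Spearman correlation of GC content with the log2 fold was -0.61 with siRNA1 and -0.10 with siRNA2, a description across genes that share libraries. Members spanned 43.4% for CDH17 to 61.8% for KRT19. With a smooth curve of fold on GC content removed, the siRNA1 folds of KRT19 and KRT8 were -0.19 and -0.45, in place of -0.78 and -0.76. LGALS4 and KRT18, also GC-rich, were then at 0.35 and 0.26 with siRNA1, and CDH17, poor in GC, at -0.05 in place of 0.22. The siRNA2 folds of all 10 members were higher after this step, at 1.59 for CEACAM5 and 1.14 for KRT18. The step also moved the typical gene, with an all-gene siRNA2 median of -0.24 over 14429 genes before it and -0.01 over 12326 after it. FOXP4 itself, at 62.9% GC, went from -0.85 to -0.20 with siRNA1 and from -1.33 to -1.02 with siRNA2. The part of GC content in the siRNA1 folds was not otherwise tested.

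**Figure D5:**
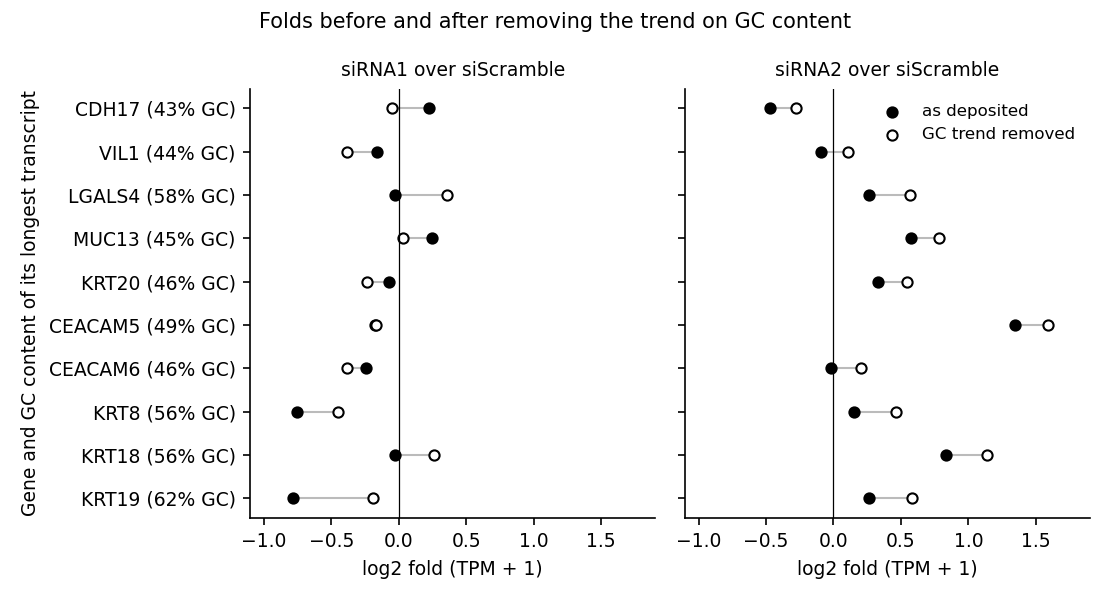
Log2 fold of TPM + 1 over siScramble (horizontal axis) for each gene (vertical axis, with the GC content of its longest transcript) with siRNA1 (left) and siRNA2 (right). Filled points are values as deposited and open points have the trend on GC content removed; with siRNA1, KRT19 goes from -0.78 to -0.19 and LGALS4 from -0.03 to 0.35.

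The wider intestinal programme was mixed. Of 35 brush border and enterocyte genes 32 stood in the table and 14 passed the filter, with 0 at least 2-fold from the control in the same direction with both siRNAs and 0 past limma. Their medians were -0.31 and -0.26, and 0.28 and 0.06 with the GC trend removed. The all-gene medians with that trend removed were 0.00 and -0.01. Over all genes tested, 2.52% were at least 2-fold higher with both siRNAs and 2.38% at least 2-fold lower. EZR, which encodes ezrin, the link between membrane and microvillar actin, measured 672, 782 and 1358 TPM. TSPAN8, a tetraspanin of gut epithelium, was 331, 263 and 133 TPM. The microvillar regulators EPS8L2 and EPS8L3 measured 173, 99.9 and 127 TPM, and 86.7, 80.6 and 152 TPM. Among digestive enzymes of mature enterocytes, named after their values were seen, SI was at most 0.28 TPM and LCT at most 0.065 TPM. ALPI, the intestinal alkaline phosphatase of the same list, passed the filter and measured 8.23, 2.42 and 4.35 TPM.

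Among 12 goblet cell genes 11 stood in the table and 3 passed the filter, with medians of 0.08 and -0.09 and 0 at least 2-fold from the control with both siRNAs. With the GC trend removed the medians were -0.09 and 0.12. REG4, a secreted lectin of intestinal metaplasia, measured 786, 828 and 740.2 TPM, and AGR2, a disulphide isomerase needed for mucin folding, 301, 402 and 258 TPM. SPINK4 was 6.50, 5.37 and 10.9 TPM. Some others of the list, named after their values were seen, were near 0. MUC2 reached at most 0.087 TPM, ATOH1 0.20 TPM and TFF3 0.55 TPM, and ZG16 was listed at 0 in each library.

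Of 17 nuclear factors of intestinal and related lineages 14 were tested, with medians of -0.04 and -0.26. Removing the GC trend gave 0.08 and -0.01. By size 1 was at least 2-fold lower with both siRNAs and 0 at least 2-fold higher, and 0 passed limma. Over all genes tested the shares were 2.38% and 2.52%. The 1 lower was CDX2, the intestinal homeobox factor and a known activator of CDH17, at 161, 54.6 and 19.0 TPM. HNF4A, named after its values were seen, measured 69.7, 73.8 and 65.8 TPM, and GATA6 139, 89.3 and 67.2 TPM. KLF5 was 393, 696 and 1548 TPM, KLF4 54.7, 108 and 522 TPM, and FOXA3 182, 212 and 304 TPM.

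Relatives of the surface genes gave no common direction over 4 families. Of 21 cadherins, desmosomal cadherins and catenins 9 were tested, with medians of 0.09 and 0.31. With the GC trend removed these were -0.04 and 0.48. By any amount 5 were higher and 2 lower with both siRNAs, against 24.5% and 38.1% of all genes tested. By 2-fold 0 were higher and 0 lower, against 2.52% and 2.38%. JUP, which encodes plakoglobin, measured 471, 338 and 251 TPM and CTNNB1, beta-catenin, 421, 469 and 521 TPM. DSG2 was 218, 303 and 269.5 TPM and CTNNA1 215, 206 and 310.3 TPM. CDH1, which encodes the classical E-cadherin and was named after its values were seen, measured 4.16, 5.86 and 11.6 TPM, far below CDH17 in every library. Of 11 genes listed as other surface mucins and sialomucins 3 were tested, with medians of -0.11 and -0.13. Removing the GC trend gave 0.35 and 0.17. The 3 were MUC1, MUC20 and MCAM, an adhesion molecule, with siRNA2 log2 folds of 0.16, -0.13 and -0.63. MUC1, the membrane mucin of most glandular epithelia, measured 53.9, 50.03 and 60.3 TPM. Of 14 other galectins and galectin-related genes 8 were tested, with medians of -0.29 and 0.00, and 0.07 and 0.23 with the GC trend removed. LGALS1 was 914, 545 and 749 TPM and LGALS3 623, 486 and 876 TPM, so LGALS4 was the lower of these in level. Of 7 villin and gelsolin relatives 5 were tested, with medians of -0.42 and -0.05, and -0.11 and 0.25 with the GC trend removed. The actin-capping CAPG measured 256, 191 and 246 TPM and FLII 174, 115 and 153 TPM. In each of these 4 families 0 members were at least 2-fold from the control with both siRNAs and 0 passed limma.

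By likeness of the 2 folds alone, over 3 libraries and the 9127 genes averaging 10 TPM or more, the genes nearest to CDH17 were ADH5, FYTTD1 and DTL, at distances of 0.00524 to 0.0201 on the log2 scale. Nearest to CEACAM6, the more abundant CEACAM member, were PCNT, SFPQ and PNMA1, at 0.00155 to 0.013. Nearest to KRT8 were UNC13D, BLVRB and EIF4EBP1, at 0.0117 to 0.0178. ADH5, for example, measured 122, 142 and 87.9 TPM, and UNC13D 180.2, 105 and 201 TPM.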

How the data were processed

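The authors deposited TPM for 3 libraries in a single table, with genes by symbol, and no column belonged to another sample. The genome build was GRCh38, per the submitters' processing notes. The aligner, quantifier, annotation and strand setting are not given in the sources used here. Since TPM values are shares, when abundant transcripts take more, all others read lower. Values were compared as log2(TPM + 1), which understates folds of low genes, wherever the mean reached 1 TPM. Knockdown (2 libraries, 1 per siRNA) was compared with siScramble (1 library) in limma 3.58.1 (R 4.3.3) with an intensity trend, 1 residual degree of freedom and Benjamini-Hochberg adjustment, at a threshold of 0.05. The lone control was assumed to vary like the siRNA libraries. Scripts were checked on simulated data. Reads were worked out from TPM and exon lengths (GENCODE 29, GRCh38), and their 95% intervals cover counting error only. The GC trend was a lowess curve (span 0.3) through the nuclear genes averaging 10 TPM or more.

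Promoters came from RefSeq (GRCh38.p14) and were aligned with Biopython 1.88. Listed symbols were matched directly or through RefSeq synonyms. The rule for named genes took all 10 members, FOXP4, from each other list the 4 of highest mean TPM and any at least 2-fold from the control with both siRNAs, and the 3 nearest genes to the most abundant member of each role, and the text gives part of these. The members and lists were chosen with earlier results of these data known, and the 1.5-fold limit, the motifs and the principal transcript lengths after the values were seen. Alternatives changed the pseudocount, the filter, the scaling, the gene set and the GC correction, and left out each siRNA library.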

Additional observations from a re-analysis of the deposited data

How the results depend on the processing

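The count of limma calls over all genes was 0 in the reported setting, and it was 93 at a minimum mean of 10 TPM, 90 among protein-coding genes and 11 with mitochondrially encoded genes removed. No member was among the calls: over 99 combinations of member and setting, 0 passed, and the adjusted p ranged from 0.834 to 0.9999. In the fits at 10 TPM and on protein-coding genes limma estimated infinite prior degrees of freedom, so each gene took the variance of the common trend. The cause of these differences in counts was not tested.

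The settings tested different numbers of genes, so the counts below are given with the number tested. The genes at least 2-fold higher with both siRNAs were 363 of 14429 as reported and 158 of 14429 with a pseudocount of 5. They were 204 of 9129 at a minimum mean of 10 TPM and 211 of 10871 among protein-coding genes. Those at least 2-fold lower, 343 of 14429 as reported, were 521 with a pseudocount of 0.1 and 121 with a pseudocount of 5, of as many genes. Without a filter the lower genes were 583 of 24224, and at a minimum mean of 10 TPM 143 of 9129. With the GC trend removed they were 117 of 12326, and among protein-coding genes 177 of 10871. With 1 siRNA library left out, the higher genes ranged from 760 to 993 and the lower from 866 to 1902, a rule on 1 fold in place of 2. The control has 1 library and could not be left out.

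The member median with siRNA2, 0.26 as reported, was 0.54 with median-of-ratios scaling and 0.56 with the GC trend removed, and the all-gene median with siRNA2 was then 0.01 and -0.01. The mean fold of both siRNAs changed sign in 5 of the 99 combinations, which do not include leaving out a library. Leaving out 1 siRNA library changed the sign of the mean for 7 of 10 members, CDH17, LGALS4, KRT20, CEACAM5, KRT8, KRT18 and KRT19, whose siRNA folds lie on opposite sides of 0. With median-of-ratios scaling VIL1 was 0.00931, CDH17 0.0125 and CEACAM6 0.00271, and with the GC trend removed KRT8 was 0.00926 and KRT19 0.19. The directions of KRT18 and LGALS4 with siRNA1 also differed between settings, from -0.04 to 0.26 and from -0.04 to 0.35. MUC13 was higher with both siRNAs in all 10 settings, from 0.03 to 0.31 with siRNA1 and from 0.51 to 0.85 with siRNA2, and CEACAM5 stayed between 1.17 and 1.62 with siRNA2.

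No paired analysis was possible because the control has 1 library and carries no replicate number. Depth limited KRT20, with 30 to 43 reads, more than any other member.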

Other observations

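Keratins and filament partners outside the 10 genes set the simple keratins beside larger differences in the siRNA2 library. Of 25 other keratins 20 stood in the table and 5 passed the filter on low values, with median log2 folds of -0.39 with siRNA1 and 0.66 with siRNA2, 0 at least 2-fold from the control with both siRNAs and 0 past limma. With the GC trend removed the medians were 0.01 and 0.94. KRT80, a type II keratin, measured 27.8 TPM with siScramble, 25.1 TPM with siRNA1 and 177 TPM with siRNA2, on 569, 497 and 3559 reads. KRT17, a type I keratin of stressed and basal epithelium, measured 17.8, 13.3 and 142 TPM. KRT10 was 25.7, 24.8 and 41.1 TPM and KRT15 3.85, 2.52 and 3.75 TPM. Squamous markers were also highest in the siRNA2 library when summed. Of 9 listed, all in the table, 2 passed the filter, S100A2 at 9.76, 26.3 and 115 TPM and KRT13 at 2.55, 1.21 and 0.44 TPM, and the list summed to 12.5, 27.7 and 119 TPM. S100A2 made up most of that sum, and 6, 5 and 3 of the 9 were listed at 0. The defining gene KRT5 was listed at 0 in each library, KRT14 reached at most 0.19 TPM and TP63 at most 0.088 TPM. The part of these genes in the KRT18 and CEACAM5 values was not tested.

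Of 14 listed genes, partners of keratin filaments together with nuclear lamins and vimentin, 13 were tested, with medians of -0.39 and 0.17. Removing the GC trend gave 0.13 and 0.48. By size 1 stood 2-fold or more below the control with both siRNAs, against 2.38% of all genes tested. That gene was LMNB2, which encodes a nuclear lamin and not a partner of keratin filaments, at 250.5, 99.8 and 89.1 TPM. PLEC, which encodes plectin, the linker of keratin filaments to hemidesmosomes, measured 86.7, 74.9 and 634 TPM. LMNA was 448, 205 and 505 TPM, a pattern with siRNA1 low as in KRT8 and KRT19, and DSP, desmoplakin, was 139, 204 and 227 TPM. Of 14 other epithelial surface genes 12 were tested, with medians of -0.12 and 0.25 and 0 at least 2-fold from the control with both siRNAs. Their medians with the GC trend removed were 0.02 and 0.55. Of 12 gastric markers 6 were tested, with medians of -0.62 and -0.23, and -0.55 and 0.05 with the GC trend removed. Of the 6, SOX2 (59.5, 20.8 and 6.35 TPM) alone stood 2-fold or more below the control with both siRNAs, against 2.38% of all genes tested. ANXA10 (0.469, 2.91 and 13.0 TPM) alone stood as far above it, against 2.52%.

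CEACAMP9, a pseudogene of the CEACAM cluster chosen here after its values were seen, measured 13.7 TPM with siScramble and 6.42 TPM with siRNA1 and was listed at 0 with siRNA2, on 33, 15 and 0 reads.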
